A study of Mus musculus with 12 samples.

Results

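The genes of the unfolded protein response and the integrated stress response were followed in primary cerebellar granule cells that received 1 of 3 splice variants of the calcium channel β4 subunit. The set held 36 genes out of 18193 genes with a probe set annotated to that gene alone. Members are defined by symbol, but the list was drawn up with earlier results of these data known, and each gene was read from the probe set with the highest mean over the 12 arrays. By role it held 14 ER chaperones and folding enzymes, 4 genes of ER-associated degradation, 5 sensors and transcription factors, and 13 genes counted among the Atf4 targets. A probe set was tested when its level was above 4 on the log2 scale on at least 3 of the 12 arrays. Of the 36 genes, 34 passed, and all 34 were above 4 on all 12 arrays. Trib3 and Slc7a11 did not pass.

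All 12 samples came from lethargic mice on a 129/SvJ background, in which Cacnb4, the gene that encodes β4, is mutated. Cells were taken at postnatal day 7 and exposed to lentivirus for 12 hours right after plating. The virus carried β4a, β4b, β4e or, in the control group, eGFP, with 3 arrays per group numbered 1 to 3. All groups therefore shared the mutant background, the virus and the addition of Ara-C, an antimitotic drug, 24 hours after plating. RNA was taken after 9 days in vitro. The labels do not say whether the 3 samples of a group came from separate animals or cultures, so p-values measure only the spread between these samples, which may be technical. Untransduced or wild-type cells were not analysed here, and all comparisons with eGFP share the same 3 eGFP arrays.

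The unfolded protein response is set off when unfolded proteins build up in the endoplasmic reticulum (ER). Its sensors are Ire1 (gene Ern1), Perk (gene Eif2ak3) and Atf6: Ire1 splices the mRNA of Xbp1, Atf6 is cleaved to an active factor, and Perk phosphorylates eIF2α. Xbp1 and Atf6 raise chaperones and degradation genes, while phosphorylated eIF2α slows translation in general and favours translation of Atf4. That last arm is also entered through other kinases, on amino acid shortage or viral RNA, and is then called the integrated stress response; its targets include amino acid synthesis and transport genes. These arrays measured total mRNA per gene and not splicing, cleavage or phosphorylation.

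Promoters of the members were searched for the elements known for the ER arm and the Atf4 arm. Windows from 250 bases before to 50 bases after the start site were taken from RefSeq (GRCm38.p6), and 33 of the 36 genes had one; Atf6, Manf and Hyou1 are named only. The ER stress element, read here as CCAAT and CCACG with 9 free bases between them on either strand, was in the windows of 8 members, against 37 of 27025 genes (0.137%). Of the 8, 7 were ER chaperones and 1, Syvn1, a degradation gene. The members were chosen as genes of these arms and the elements as known for them, so a higher share among members is no result. The matches are shown because 7 chaperones share these letters, against 5 with a window and no match. Capitals mark the letters fixed by the motif.
Hspa5: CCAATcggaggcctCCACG
Calr: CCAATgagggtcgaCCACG
Canx: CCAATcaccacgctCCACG
Pdia6: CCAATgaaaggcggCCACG
Dnajc3: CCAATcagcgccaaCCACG
Creld2: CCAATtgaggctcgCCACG
Syvn1: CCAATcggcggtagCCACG
These lie at chr2:34772025-34772043 for Hspa5, chr8:84847075-84847093 for Calr, chr11:50325800-50325818 for Canx, chr12:17266491-17266509 for Pdia6, chr14:118937827-118937845 for Dnajc3, chr15:88819520-88819538 for Creld2 and chr19:6046532-6046550 for Syvn1. They are on the plus strand, except those of Canx and Creld2, which are on the minus strand. Hsp90b1 held 2 matches, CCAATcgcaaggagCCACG at chr10:86705638-86705656 on the minus strand and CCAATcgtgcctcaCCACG at chr10:86705533-86705551 on the plus strand. In the Hspa5 promoter the match lay 65 to 47 bases before the start site, in the stretch chr2:34771940-34772089 on the plus strand.
Hspa5: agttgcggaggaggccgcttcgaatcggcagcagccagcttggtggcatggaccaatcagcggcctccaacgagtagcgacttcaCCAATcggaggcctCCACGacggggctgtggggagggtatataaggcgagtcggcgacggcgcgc

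The C/EBP-ATF element, read as TGATGNAA on either strand, was in the windows of 5 members: Chac1, Trib3, Slc7a11, Asns and Herpud1. It was in 1219 of the 27025 genes (4.51%). Asns held it 23 to 16 bases before the start site, in capitals in the 150 bases at chr6:7693210-7693359 on the minus strand, shown because Asns is the classical gene of amino acid shortage.
Asns: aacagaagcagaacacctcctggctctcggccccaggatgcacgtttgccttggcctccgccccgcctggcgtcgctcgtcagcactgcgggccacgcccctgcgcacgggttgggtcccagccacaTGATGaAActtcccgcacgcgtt
The unfolded protein response element TGACGTGG, searched on both strands, was in the windows of 0 members and of 193 genes (0.714%). A match describes letters in this window and says nothing of binding in these cells. No member held more than 1 kind of motif, so no matches of different motifs overlapped.

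Granule cell transcripts were high: the summed level of 9 granule cell markers lay between 16.51 and 16.70 on all 12 arrays. That sum is carried by the brightest of them, and others varied more, Zic2 from 10.58 to 12.50, Fat2 from 10.77 to 12.80 and Rbfox3 from 11.89 to 13.81. Of 5 endothelial markers 0 passed the filter, while 10 of 10 astrocyte markers and 9 of 9 oligodendrocyte markers did. In such bulk RNA, more cells of a type and more RNA per cell cannot be told apart. The brightest Cacnb4 probe set stood at 12.01 to 12.24 with eGFP and at 11.80 to 12.15 with the variants; whether its probes read the transferred sequence is not known here, so it does not check the labels. Replicate number separated the arrays more than group did. Arrays of equal number deviated together from their group means (r of 0.70 to 0.88 in 18 of 18 pairs), and the fit with the number as a block is therefore given beside the fit without it.

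No member passed the threshold of 0.05 for the Benjamini-Hochberg adjusted p in limma in any comparison of a variant with eGFP. Without the block 0% of 23044 probe sets passed in each of the 3 comparisons. With the block, 0.013% passed for β4a, 0.013% for β4b and 0% for β4e. The lowest adjusted p of a member with the block was 0.190 for β4a and 0.0965 for β4b, both of Pdia3, and 0.878 for β4e. The standard error of a member's log2 difference had a median of 0.23 without the block and 0.12 with it. At an unadjusted p under 0.05 with the block, 10 of 34 members were higher with β4a (29.4%), against 7.71% of the 10977 genes tested. For β4b the count was 11 of 34 (32.4%) against 11.9%, and for β4e 3 of 34 (8.82%) against 4.01%. Lower members at that p numbered 0 in all 3 comparisons, against 3.93%, 4.53% and 1.14% of genes. For the mean of the 3 variants, 0 members and 0.0217% of probe sets passed with the block. Without the block the counts at that p in either direction were 0 for β4a (1.3% of genes), 2 for β4b (Calr and Phgdh; 2.31%) and 0 for β4e (0.419%).

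The ER chaperones were mostly above eGFP with β4a and β4b, by small amounts that did not pass the test gene by gene. With β4a the median log2 difference from eGFP over the 14 genes was 0.24, and the medians within replicate numbers 1, 2 and 3 were 0.34, 0.22 and 0.12. With β4b the median was 0.26, with 0.42, 0.21 and 0.10 in the 3 numbers. With β4e it was 0.12, with 0.17, 0.25 and 0.027. Over all genes tested the medians were 0.027, 0.043 and 0.033 for β4a, β4b and β4e. With β4a 12 of 14 chaperones were above eGFP within every replicate number (18.4% of all genes were), with β4b also 12 of 14 (24.3%), and with β4e 5 of 14 (18.4%). Over all 34 members, 17, 16 and 9 were above eGFP in every number for β4a, β4b and β4e, and 1, 3 and 3 were below it (14%, 14.1% and 8.79% of genes). In the probe sets used, these 14 chaperones differed by at most 1.45-fold in any comparison, and none passed the test. Another Dnajc3 probe set past the filter differed by more, with a mean log2 difference of 0.64 with β4b. Markers of cell types moved beside these values, and their part was not tested. Oligodendrocyte markers had medians of 0.063, 0.22 and 0.13 for β4a, β4b and β4e, with 3, 6 and 4 of 9 above eGFP in every number, and a summed level of 14.25 to 14.83 with eGFP and 14.20 to 14.89 with the variants. Granule cell markers had medians of -0.11, -0.079 and -0.061, with 6, 3 and 3 of 9 below eGFP in every number. Astrocyte markers had medians of 0.42, 0.61 and 0.46, with 2, 2 and 3 of 10 above eGFP in every number. Microglia (5 markers) had medians of -0.13, 0.092 and 0.11, fibroblasts (5) 0.090, 0.18 and 0.11, and Purkinje cells (2) 0.20, 0.39 and 0.27. Of 3 secretory plasma and choroid plexus cell markers 2 passed the filter. The 3 summed to 14.14, 5.35 and 14.36 in numbers 1, 2 and 3 with eGFP. The median of the 2 was -0.72, 0.94 and -0.063 in those numbers with β4a. It was -1.58, 1.82 and -0.084 with β4b and -1.21, 2.98 and -0.074 with β4e. Single arrays were also left out of the fit without the block, which unbalances the replicate numbers between the groups. In that fit the β4a median of the chaperones was 0.15 without replicate 1 of β4a. Without replicate 2 of β4e the β4e median was 0.077, and without replicate 3 of β4e it was 0.24.

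**Figure D1:**
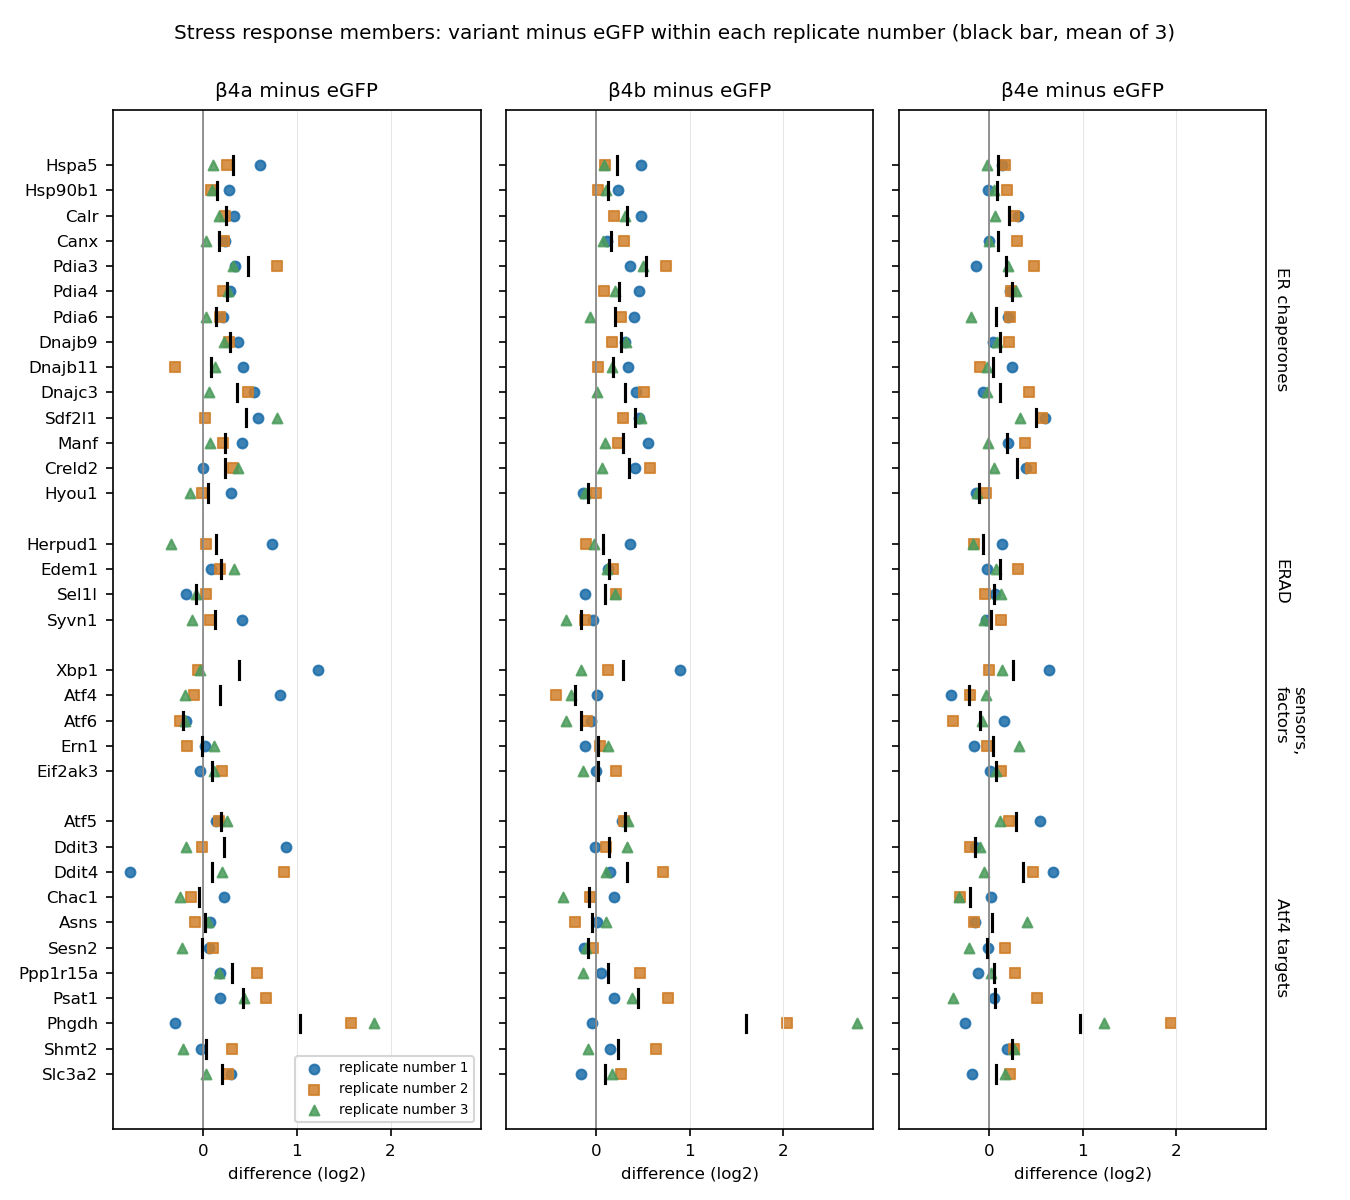
Log2 difference from eGFP of each of the 34 genes past the filter, 1 panel per variant, with points for replicate numbers 1, 2 and 3 and a black bar for their mean. The chaperones at the top lie mostly right of 0 for β4a and β4b, and Phgdh has the widest spread, from -0.30 to 1.82 with β4a and from -0.04 to 2.78 with β4b.

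Hspa5 encodes BiP, the main Hsp70 chaperone of the ER and the usual marker of the unfolded protein response. Its log2 levels in arrays 1, 2 and 3 were 12.41, 12.84 and 12.62 with eGFP, 13.03, 13.10 and 12.72 with β4a, 12.89, 12.93 and 12.71 with β4b, and 12.55, 13.01 and 12.60 with β4e. The eGFP array of number 1 was the lowest of the 12, and each variant group overlapped eGFP. The mean log2 difference was 0.33 ± 0.26 with β4a (SD of the differences within the numbers, here and below; n = 3), 0.22 ± 0.22 with β4b and 0.098 ± 0.10 with β4e. A second Hspa5 probe set differed by 0.51, 0.37 and 0.15, and another, dim one by 0.07, -0.27 and 0.05.

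Calr encodes calreticulin, a calcium-binding lectin chaperone. Its levels were 11.96, 12.02 and 12.16 with eGFP, 12.29, 12.26 and 12.33 with β4a, 12.44, 12.21 and 12.47 with β4b, and 12.27, 12.28 and 12.23 with β4e. All 9 variant arrays were above the 3 eGFP arrays. The log2 difference was 0.25 ± 0.080 with β4a (1.19-fold; adjusted p with the block 0.275 in limma), 0.33 ± 0.15 with β4b (1.26-fold; 0.132) and 0.21 ± 0.13 with β4e (1.16-fold; 0.892). Members whose 3 variant arrays all lay above the 3 eGFP arrays were Calr, Dnajc3 and Edem1 for β4a (3 of 34; 2.51% of all genes), Calr and Manf for β4b (2 of 34; 3.51%) and Calr for β4e (1 of 34; 1.64%). Members whose 3 variant arrays all lay below eGFP numbered 0 in each comparison (1.63%, 2% and 0.683% of genes). Calr levels did not pass the test for a difference between replicate numbers (adjusted p 0.501 in limma with the block).

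**Figure D2:**
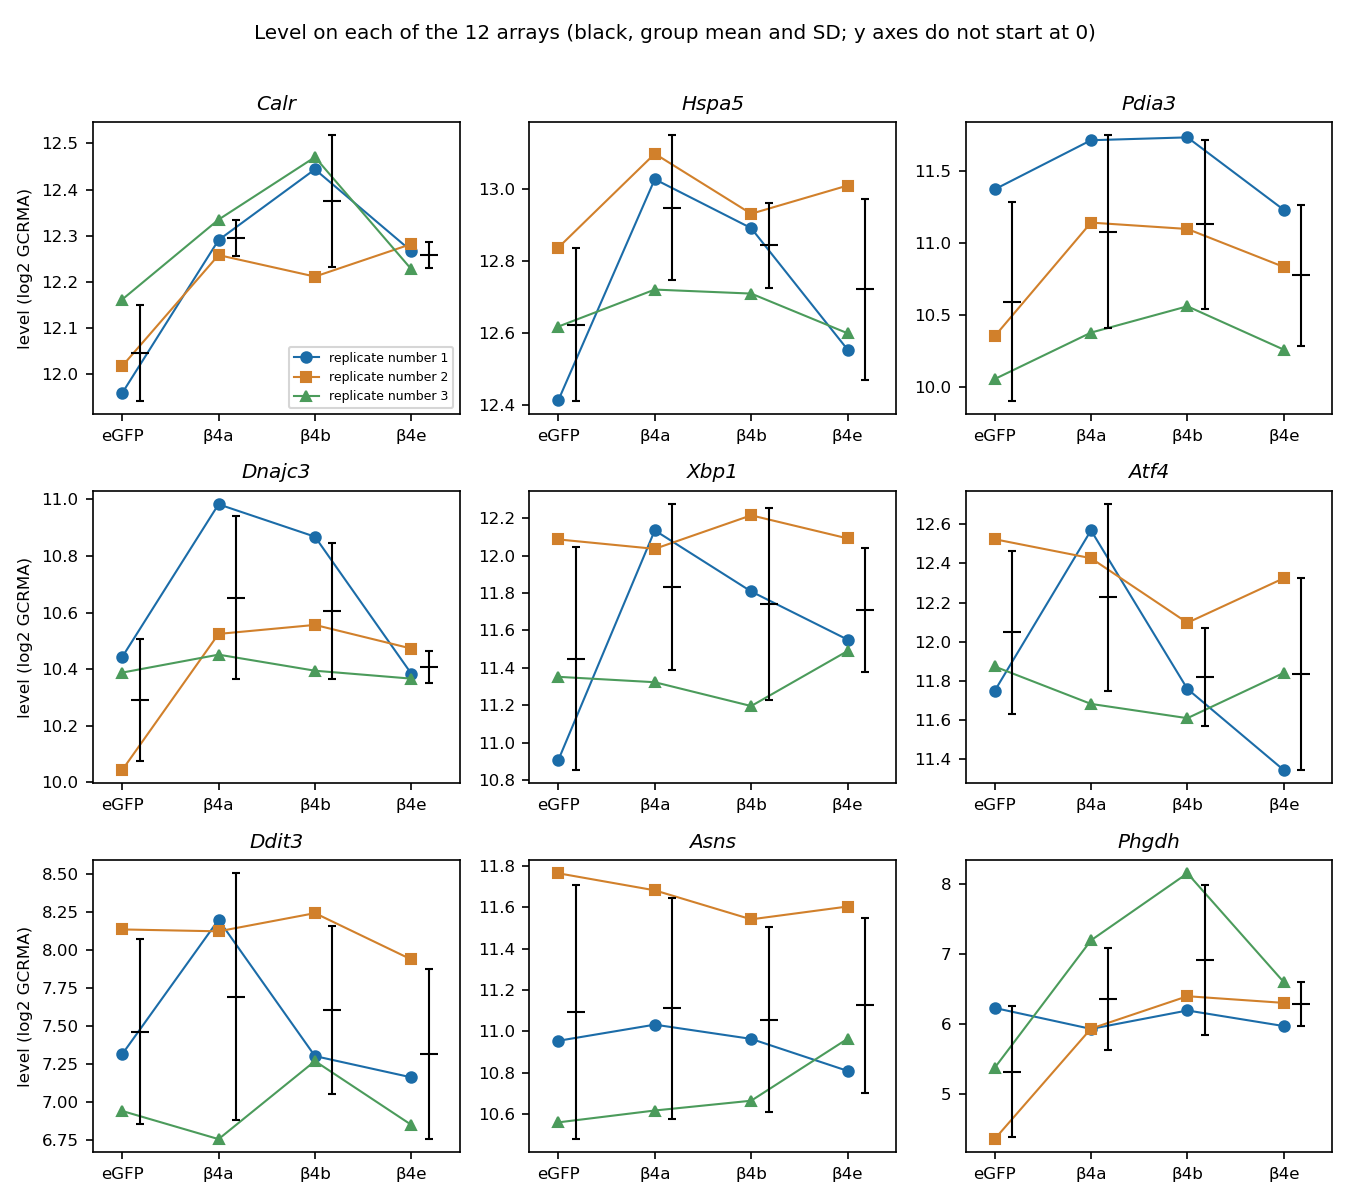
Log2 level of selected genes on each of the 12 arrays, by group, with the replicate number shown by colour and marker and the group mean and SD in black; lines join arrays of 1 number, and the y axes do not start at 0. Calr is above the eGFP arrays in all 9 variant arrays, whereas Xbp1, Atf4 and Ddit3 overlap eGFP in each group and spread most in replicate number 1.

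Pdia3 encodes ERp57, the disulfide isomerase that works with calreticulin and calnexin. Its levels fell into steps by replicate number, 11.37, 10.35 and 10.05 with eGFP, 11.71, 11.14 and 10.38 with β4a, 11.73, 11.10 and 10.56 with β4b, and 11.23, 10.83 and 10.26 with β4e. Within each number β4a and β4b were above eGFP, by 0.34, 0.79 and 0.32 and by 0.36, 0.75 and 0.51 (1.40-fold and 1.45-fold on the mean). With β4e the differences were -0.14, 0.48 and 0.20. The numbers differed by more than the variants did, and the groups overlapped. A second, dim Pdia3 probe set past the filter (mean level 4.30) did not show this rise. It differed by 0.06, -0.05 and -0.11 on the mean for β4a, β4b and β4e.

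Sdf2l1, a partner of BiP, differed from eGFP by 0.58, 0.019 and 0.79 with β4a, 0.46, 0.29 and 0.48 with β4b, and 0.60, 0.57 and 0.33 with β4e. Its levels were 6.13, 7.13 and 5.62 with eGFP, 6.71, 7.15 and 6.41 with β4a, 6.59, 7.43 and 6.10 with β4b, and 6.72, 7.70 and 5.95 with β4e. It was dim in number 3 of eGFP (5.62) and brightest in number 2 of β4e (7.70). Dnajc3 encodes p58IPK, a co-chaperone of BiP that also inhibits Perk. Its levels were 10.44, 10.04 and 10.39 with eGFP, 10.98, 10.52 and 10.45 with β4a, 10.87, 10.56 and 10.39 with β4b, and 10.38, 10.47 and 10.37 with β4e. In this probe set the difference in number 3 was small, at 0.064 with β4a and 0.0067 with β4b. The other Dnajc3 probe sets had means above eGFP in each comparison. The brightest of them differed by 0.53, 0.64 and 0.26 for β4a, β4b and β4e, and was higher in 3, 3 and 2 of the 3 numbers. Hyou1, an exchange factor for BiP, had the lowest chaperone difference: 0.049, -0.081 and -0.10 on the mean for β4a, β4b and β4e.

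The 7 chaperones with the ER stress element printed above had median log2 differences of 0.23, 0.22 and 0.099 for β4a, β4b and β4e. The 5 chaperones with a window and no match (Pdia3, Pdia4, Dnajb9, Dnajb11 and Sdf2l1) had medians of 0.29, 0.27 and 0.18. The median was no higher among the genes that hold these letters, in each of the 3 comparisons, but the ranges overlapped. For β4a they were 0.14 to 0.36 with a match and 0.084 to 0.48 without. Manf and Hyou1 were not searched, and the part of the element in these differences was not tested.

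The 4 genes of ER-associated degradation lay closer to eGFP on the median. Herpud1, a ubiquitin-like membrane protein of the degradation complex, differed by 0.73, 0.033 and -0.34 with β4a, 0.36, -0.11 and -0.020 with β4b, and 0.14, -0.16 and -0.17 with β4e. Its levels were 9.00, 9.42 and 8.75 with eGFP, 9.73, 9.45 and 8.40 with β4a, 9.36, 9.31 and 8.73 with β4b, and 9.14, 9.26 and 8.57 with β4e. The β4a array of number 1 was the highest of the 12 and that of number 3 the lowest. Edem1, a lectin that hands misfolded glycoproteins to degradation, stood at 7.31, 7.29 and 7.07 with eGFP, 7.40, 7.47 and 7.40 with β4a, 7.45, 7.47 and 7.19 with β4b, and 7.29, 7.61 and 7.15 with β4e. The β4a arrays were all above the eGFP arrays, by a log2 difference of 0.20 ± 0.12. Syvn1, the ubiquitin ligase Hrd1, stood at 10.24, 10.09 and 9.95 with eGFP, 10.65, 10.17 and 9.83 with β4a, 10.20, 9.97 and 9.63 with β4b, and 10.21, 10.23 and 9.90 with β4e. It differed by 0.41, 0.074 and -0.11 with β4a and by -0.036, -0.12 and -0.31 with β4b. A second, dimmer Syvn1 probe set went the other way with β4b (0.089 on the mean, higher in 3 of 3 numbers). The median over the 4 genes was 0.13, 0.088 and 0.036 for β4a, β4b and β4e, and none of the 4 passed the test. Within numbers 1, 2 and 3 the β4a median was 0.25, 0.054 and -0.095. The medians moved when single arrays were left out of the fit without the block, which also unbalances the replicate numbers between the groups. In that fit the β4a median was -0.11 without replicate 1 of β4a and 0.26 without replicate 3 of β4a. It was 0.019 without replicate 3 of eGFP. For β4b it was -0.00815 without replicate 1, 0.039 without replicate 2 and 0.15 without replicate 3 of β4b, and 0.056 and -0.00589 without replicates 2 and 3 of eGFP. For β4e it was -0.083, -0.021 and 0.14 without replicates 1, 2 and 3 of β4e, and 0.13, 0.069 and -0.013 without those of eGFP.

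Among the sensors and factors, the probe sets used for Xbp1 and Atf4 were higher with β4a in number 1 and not in numbers 2 and 3. Xbp1 encodes the factor that Ire1 activates by splicing. It stood at 10.91, 12.09 and 11.35 with eGFP, 12.14, 12.04 and 11.32 with β4a, 11.81, 12.22 and 11.20 with β4b, and 11.55, 12.09 and 11.49 with β4e. The eGFP array of number 1 was the lowest of the 12, and the difference in number 1 was 1.23 with β4a, 0.90 with β4b and 0.64 with β4e, against -0.05 and -0.03 in numbers 2 and 3 with β4a. The pattern of Xbp1 differed between its probe sets. One with a mean level of 9.98 differed by 0.81, 0.77 and 0.37 on the mean for β4a, β4b and β4e, and was higher in 2, 3 and 2 of the 3 numbers. One with a mean level of 10.44 differed by 0.47, 0.32 and 0.29, and was higher in 2, 1 and 2. These Xbp1 values count spliced and unspliced mRNA together. Atf4 stood at 11.75, 12.52 and 11.87 with eGFP, 12.57, 12.43 and 11.68 with β4a, 11.76, 12.10 and 11.61 with β4b, and 11.34, 12.32 and 11.84 with β4e. With β4a Atf4 differed by 0.82, -0.10 and -0.19, and Ddit3, the factor Chop, by 0.89, -0.01 and -0.19. Ddit3 stood at 7.31, 8.14 and 6.94 with eGFP, 8.20, 8.12 and 6.75 with β4a, 7.30, 8.24 and 7.27 with β4b, and 7.16, 7.94 and 6.85 with β4e. A second Atf4 probe set differed by 0.31, -0.11 and -0.11 on the mean for β4a, β4b and β4e. In the probe sets used, the β4a excess of Xbp1, Atf4, Ddit3 and Herpud1 was seen in number 1 and not in number 3.

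Activity-regulated genes, a list of 10 that includes Fos, Npas4 and Nr4a1, matched that β4a split in numbers 1 and 3 but not in number 2. Their part in it was not tested. All 10 passed the filter. Their median log2 difference was 4.30, 1.94 and -0.25 in numbers 1, 2 and 3 with β4a, 2.48, 1.06 and -0.40 with β4b, and -0.33, 0.62 and -0.31 with β4e. Their summed log2 level ran from 11.83 to 13.81 with eGFP, 12.93 to 15.71 with β4a, 12.89 to 15.36 with β4b and 11.32 to 14.71 with β4e. In number 2 with β4a, Xbp1, Atf4, Ddit3 and Herpud1 differed by -0.05, -0.10, -0.01 and 0.03. In number 1 with β4b they differed by 0.90, 0.01, -0.01 and 0.36. The activity genes were above eGFP on the median in both. The chaperone medians in numbers 1, 2 and 3 were 0.34, 0.22 and 0.12 with β4a and 0.42, 0.21 and 0.10 with β4b. With these 2 variants they fell in the same order as the activity medians, and stayed above 0 in number 3. With β4e they were 0.17, 0.25 and 0.027. A link between the 2 lists was not tested.

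Atf6 stood at 7.10, 7.72 and 7.25 with eGFP, 6.92, 7.47 and 7.06 with β4a, 7.06, 7.62 and 6.93 with β4b, and 7.27, 7.33 and 7.18 with β4e. With β4a it was below eGFP in every number, with differences of -0.18, -0.25 and -0.19. A second Atf6 probe set went the other way with β4a (0.21 on the mean). The probe sets used for Ern1 and Eif2ak3 differed by at most 0.097 in size on the mean in any comparison. Another Ern1 probe set past the filter, of similar brightness (means of 4.51 and 4.85 over the 12 arrays), was below eGFP in every number of each comparison, with mean differences of -0.39, -0.40 and -0.28.

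The Atf4 targets lay on both sides of eGFP. Of the 13, 11 passed the filter, with median log2 differences of 0.19, 0.14 and 0.063 for β4a, β4b and β4e. Those above eGFP within every number were 4, 3 and 2 of 11, against 18.4%, 24.3% and 18.4% of all genes, so the β4b and β4e counts (27.3% and 18.2%) are near the share over all genes. Within numbers 1, 2 and 3 the β4a median was 0.14, 0.27 and 0.057. The medians moved when single arrays were left out of the fit without the block, which also unbalances the replicate numbers between the groups. In that fit the β4a median was -0.0032 without replicate 3 of eGFP and 0.29 without replicate 2 of eGFP. It was 0.057, 0.066 and 0.35 without replicates 1, 2 and 3 of β4a. The β4b median was 0.031 without replicate 3 of eGFP, 0.30 without replicate 2 of eGFP, -0.082 without replicate 2 of β4b and 0.32 without replicate 3 of β4b. The β4e median was 0.11, 0.16 and 0.0015 without replicates 1, 2 and 3 of eGFP, and 0.0017, -0.057 and 0.14 without those of β4e.

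Asns encodes asparagine synthetase. It stood at 10.95, 11.76 and 10.56 with eGFP, 11.03, 11.68 and 10.62 with β4a, 10.96, 11.54 and 10.66 with β4b, and 10.81, 11.60 and 10.96 with β4e. Its log2 differences were 0.018 ± 0.087, -0.036 ± 0.17 and 0.033 ± 0.32, each mean smaller than its SD. Ddit4, an inhibitor of mTORC1 signalling, stood at 9.79, 8.17 and 8.69 with eGFP, 9.01, 9.03 and 8.89 with β4a, 9.94, 8.89 and 8.80 with β4b, and 10.47, 8.64 and 8.64 with β4e. It differed by -0.78, 0.86 and 0.20 with β4a. Chac1, a glutathione-degrading enzyme, and Sesn2, a leucine sensor, had mean differences between -0.20 and -0.015 in all 3 comparisons. A dimmer Sesn2 probe set had means above eGFP, at 0.20, 0.15 and 0.098. Atf5 was higher within every number by 0.14, 0.17 and 0.25 with β4a, 0.28, 0.30 and 0.35 with β4b, and 0.55, 0.22 and 0.11 with β4e. Trib3, a pseudokinase induced by Chop, stood at 3.95, 4.05 and 3.67 with eGFP, 3.52, 3.92 and 3.26 with β4a, 3.49, 3.98 and 3.34 with β4b, and 3.81, 3.84 and 3.34 with β4e. These levels are near background, as are those of Slc7a11, the cystine transporter, at 3.31 to 3.76, and differences from them are not exact.

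Phgdh and Psat1 encode the first enzymes of serine synthesis. Psat1 stood at 8.69, 7.59 and 7.32 with eGFP, 8.87, 8.26 and 7.76 with β4a, 8.89, 8.35 and 7.71 with β4b, and 8.75, 8.10 and 6.94 with β4e. Phgdh stood at 6.22, 4.35 and 5.37 with eGFP, 5.92, 5.93 and 7.19 with β4a, 6.19, 6.39 and 8.15 with β4b, and 5.96, 6.29 and 6.59 with β4e. Its log2 differences were -0.30, 1.58 and 1.82 with β4a (2.05-fold on the mean), -0.036, 2.04 and 2.78 with β4b (3.02-fold) and -0.26, 1.95 and 1.23 with β4e (1.96-fold). Phgdh was thus slightly below eGFP in number 1 and above it in numbers 2 and 3. Phgdh did not pass (adjusted p with the block 0.325, 0.131 and 0.892 in limma for β4a, β4b and β4e). Without replicate 1 of eGFP, with the block, the β4b adjusted p was 0.0468, and over the other alternatives with the block it ran from 0.115 to 0.466. Its other probe sets differed less, by 0.03, -0.16 and 0.32 on the mean for β4a.

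Phgdh is also known as an astrocyte-enriched gene, and astrocyte markers moved with it. The 10 markers had median log2 differences of -0.31, 0.50 and 0.87 in numbers 1, 2 and 3 with β4a, -0.32, 0.91 and 1.33 with β4b, and -0.06, 0.91 and 0.45 with β4e. All 10 had means above eGFP in each comparison. Their summed level ran from 13.92 to 14.79 with eGFP, 14.36 to 15.19 with β4a, 14.53 to 15.47 with β4b and 14.62 to 14.72 with β4e. Their part in the Phgdh and Psat1 values was not tested.

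**Figure D3:**
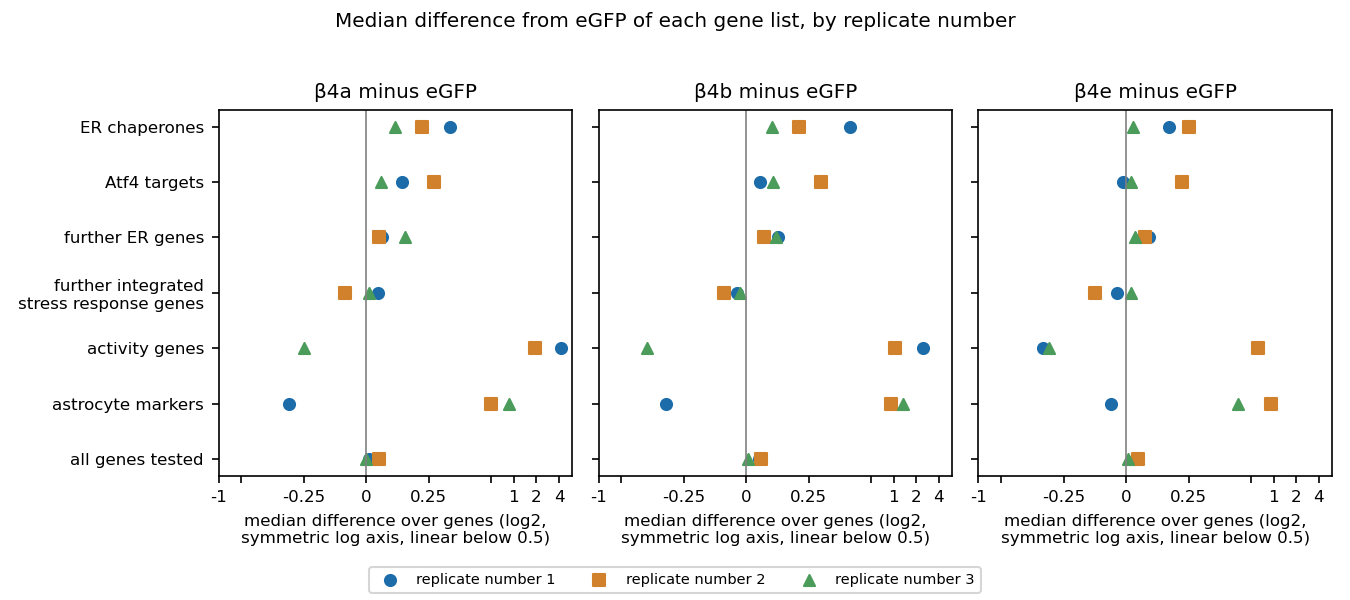
Median log2 difference from eGFP over the genes of each list, 1 panel per variant, with 1 marker per replicate number on a symmetric log axis. The chaperone medians are above 0 in all numbers, the astrocyte medians are below 0 in number 1 and above it in numbers 2 and 3, and the activity gene medians spread from -0.40 to 4.30.

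No member differed between variants past the threshold in limma, with or without the block, and with the block 0% of probe sets did in each pair. At an unadjusted p under 0.05 with the block, 1 of 34 members differed between β4a and β4b (2.58% of genes), 1 between β4a and β4e (4.85%) and 2 between β4b and β4e (5.38%). For β4a against β4b the lowest unadjusted p with the block was that of Syvn1 (log2 difference 0.28; p 0.0397, adjusted 0.997 in limma), in the probe set that its second one opposed with β4b. For β4a against β4e it was Pdia3 (0.30; adjusted p 0.759), and for β4b against β4e Pdia3 (0.36; adjusted p 0.675). The chaperone medians were 0.0046 for β4a against β4b, 0.066 for β4a against β4e and 0.11 for β4b against β4e. A p above the threshold does not show that the variants act alike.

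Replicate number was the larger source of variation for the members. Of the sum of squares over the 34 genes 67.2% lay between numbers and 16.0% between groups, against 73.0% and 11.3% over all genes tested. With number as a factor, 26 of 34 members differed between numbers in limma (F test, Benjamini-Hochberg), against 62.4% of genes. Of the 14 chaperones 8 were highest in number 1 and 5 in number 2, and of the 11 Atf4 targets 3 and 7. Of the 10977 genes tested, 5712 were highest in number 1, 3306 in number 2 and 1959 in number 3, so the chaperone counts are near those over all genes. Pdia3 had means of 11.51, 10.85 and 10.31 in numbers 1, 2 and 3, and Dnajb9, a J-domain partner of BiP, 12.02, 11.47 and 11.03. Asns stood at 10.94, 11.65 and 10.70, and Ddit3 at 7.49, 8.11 and 6.95. Of the 34, 15 were highest in number 1, 17 in number 2 and 2 in number 3.

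**Figure D4:**
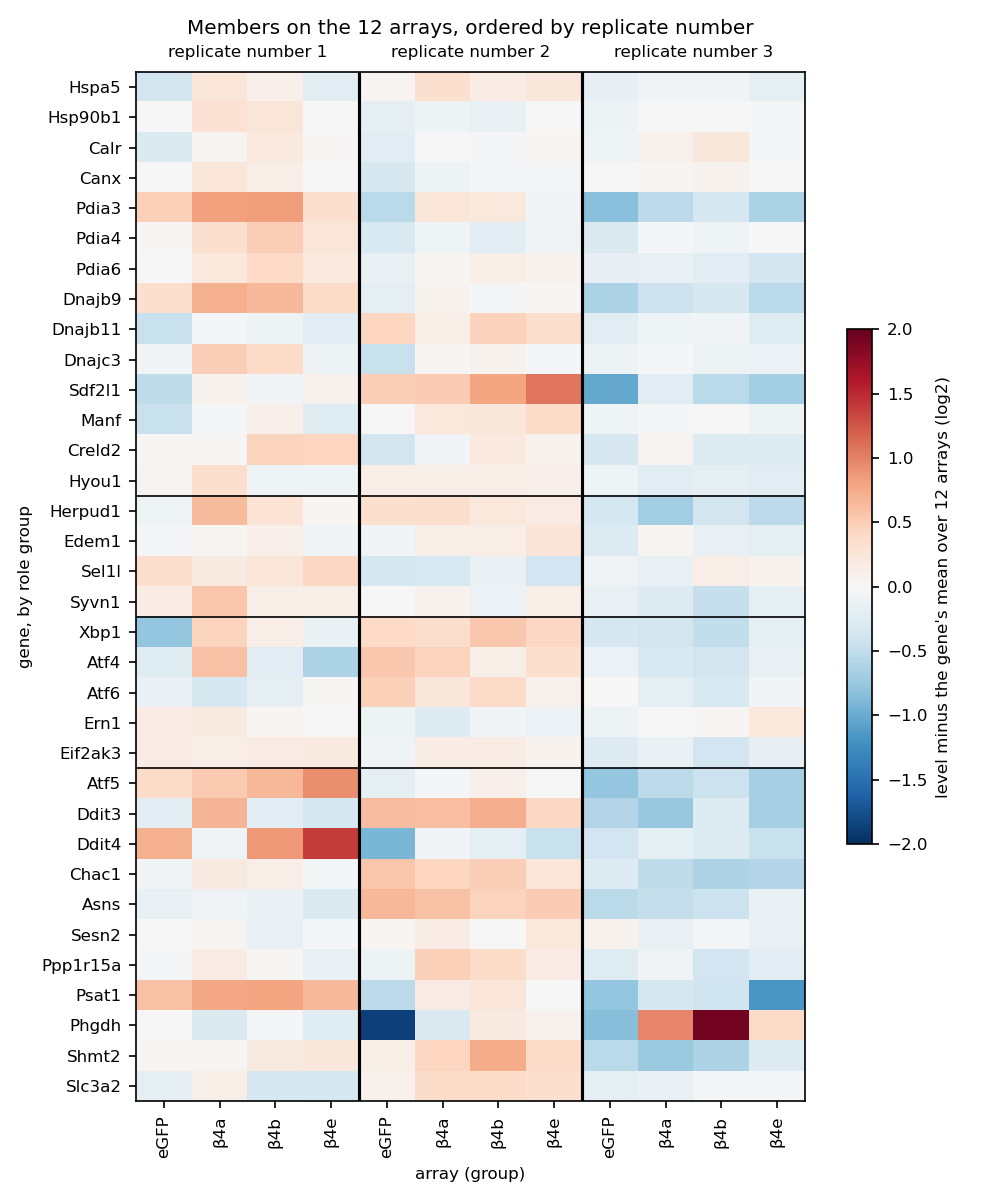
Log2 level of each of the 34 genes on each array minus its mean over the 12 arrays, ordered by replicate number and then group; rows are genes by role. Colours change in blocks by replicate number, for instance Pdia3 high in number 1 and Asns high in number 2.

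Of a further 76 pathway genes with a probe set, 68 passed the filter and 0 passed the limma test in either direction against eGFP. At an unadjusted p under 0.05 with the block, 7, 6 and 2 of the 35 on the ER side and 3, 3 and 0 of the 33 on the integrated stress response side differed for β4a, β4b and β4e. Over all genes tested these shares were 11.6%, 16.4% and 5.15%. The 35 on the ER side had medians of 0.10, 0.11 and 0.065 for β4a, β4b and β4e, and the 33 on the integrated stress response side -0.0049, -0.10 and -0.051. Fkbp2, an ER prolyl isomerase, differed by 0.53, 0.61 and 0.20 with β4a, 0.42, 0.51 and 0.38 with β4b, and 0.41, 0.57 and 0.37 with β4e. Fkbp2 and the next 3 genes were named because their differences had 1 sign in every number of all 3 comparisons, here above eGFP. That agreement is therefore no result, and the 3 comparisons share the eGFP arrays. None of these genes passed the test. Derl2, a channel component of ER-associated degradation, differed by 0.20, 0.41 and 0.91 with β4a, 0.41, 0.50 and 1.38 with β4b, and 0.31, 0.27 and 0.58 with β4e. Ssr1, a subunit of the translocon-associated complex, differed by 0.33, 0.15 and 0.25 with β4a. Eif2ak2, the kinase PKR that responds to viral RNA, differed by 0.06, 0.66 and 0.56 with β4a.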

How the data were processed

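RNA from 12 samples was hybridised to Affymetrix mouse 3′ arrays, 1 per sample. The deposited values are log2 intensities made by the authors with GCRMA, per the submitters' processing notes; its version is not given in the sources used here. They were used as deposited. Of 45101 probe sets, 64 controls were left out and 23044 passed the filter. Probe sets were named from the platform annotation where it gives 1 symbol; 26 members have several, 84 in all, and the brightest was used. limma 3.58.1 in R 4.3.3 (lmFit, eBayes; 8 residual degrees of freedom, 6 with the replicate block) gave two-sided p-values, adjusted by Benjamini-Hochberg over all 23044 probe sets; promoters were searched in Python 3.11.15. Fits were tested on simulated data with changes larger than those of the chaperones here, so the power at such small differences was not tested. The replicate numbers come from the sample titles; same-numbered arrays deviated together (r 0.699 to 0.884, other pairs at most 0.146), so they were taken as pairs. Named with their values were 7 fixed genes, up to 3 members of each role with the largest difference in size, any member past the threshold, and further genes above or below eGFP in every number of all 3 comparisons; others given were chosen after their values were seen. Members and lists were chosen with earlier results of these data known. The number of arrays limits the precision. Alternatives were other normalizations, filters, probe set summaries, a variance trend and leaving out arrays.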

Additional observations from a re-analysis of the deposited data

How the results depend on the processing

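The number of probe sets past the threshold depended on the replicate block. Without it, it was 0 in each comparison as reported. With the block it was 3 for β4a, 3 for β4b and 5 for the mean of the variants. With the block and a variance trend, quantile normalization or without all arrays of number 1 it was 1 for β4a, 3 for β4b and 1 for the mean of the variants, and with the block and no filter 3, 75 and 17, with 1 for the F test among the 4 groups. Leaving out 1 array gave 0 to 2 for β4a, 0 to 61 for β4b (6 without replicate 2 of β4e and 61 without replicate 1 of eGFP, with the block), 0 to 3 for the mean of the variants, 0 to 1 for the F test and 0 to 1 for β4a against β4e. Members past the threshold stayed at 0, except 0 to 1 for β4b when 1 array was left out (Phgdh, with the block). The block alone changed no call of a member. Over arrays left out 1 at a time without the block, chaperone medians ran from 0.15 to 0.26 for β4a. For β4e they ran from 0.077 to 0.24. Those of the degradation genes ran from -0.11 to 0.26, -0.00815 to 0.15 and -0.083 to 0.14 for β4a, β4b and β4e. Those of the Atf4 targets ran from -0.0032 to 0.35, -0.082 to 0.32 and -0.057 to 0.16. Leaving out 1 array there also unbalances the replicate numbers between the groups. Within single numbers of the replicate block, chaperone medians were 0.12 (β4a, number 3) and 0.25 (β4e, number 2), Atf4 target medians 0.057 (β4a, number 3), 0.30 (β4b, number 2) and 0.22 (β4e, number 2), and degradation medians -0.095 (β4a, number 3), 0.048, 0.035 and 0.047 (β4b, numbers 1 to 3) and 0.014 (β4e, number 3). The degradation median for β4b was 0.058 with quantile normalization, 0.034 with median centring, 0.12 with the mean of all probe sets and 0.041 without all arrays of number 1; for β4e it was 0.018 with median centring, 0.059 with the mean of all probe sets and 0.00509 without all arrays of number 2. The cause of these shifts was not tested. Signal near background limits Trib3 and Slc7a11, and 3 arrays per group limit all differences.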
